A study of Rattus norvegicus with 12 samples.

Results

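The genes of the mitochondrial ribosomal proteins were measured in pancreatic islets of rat offspring. They were taken as every entry of the gene table whose symbol starts with Mrpl or Mrps followed by a number, which gave 71 of 17407 gene entries. All 71 passed the filter on low values, as did 12340 entries in all, which asked for a scaled value of 1 or more on average over the 12 libraries. By textbook assignment, 45 of the 71 encode proteins of the large subunit and 25 proteins of the small subunit. Mrps18a and Mrps30 were counted with the large subunit, where their proteins sit despite the symbols. Mrps36, which RefSeq lists under the symbol Kgd4, was kept as a member by its symbol, although its product is known as a part of the 2-oxoglutarate dehydrogenase complex and not of the ribosome.

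The 4 groups of offspring were compared, named by the dam and the weaning diet, with 3 libraries each. GDM-HFS and GDM-LF offspring came from Sprague-Dawley dams with gestational diabetes mellitus (GDM), brought about by a high-fat and sucrose diet (HFS, 45% fat). Lean-HFS and Lean-LF offspring came from lean dams on a low-fat diet (LF, 10% fat). Each diet was given to 6 dams for 6 weeks before mating with LF-fed males and then through pregnancy and suckling, with litters cut to 8 pups. Pups were weaned onto HFS or LF for 12 weeks, and their islets were isolated at 15 weeks of age by collagenase digestion and manual picking. The HFS diet and the diabetes of the dam cannot be told apart in this design. The labels give neither the litter nor the sex of an offspring, so p-values here cover only the spread among the 12 samples. The question is whether the dam's condition and the weaning diet change islet gene expression.

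The libraries held between 11469290 and 27492858 reads over genes, of which 17421 to 63241 fell on the 71 genes. A deposited value of 1 stands for 1.96 to 5.02 reads, and the lowest count of a member in any library was 12 reads. Of the 71 genes, 70 had at least 20 reads in every library. Ribosomal RNA took 1.84% to 8.55% of the reads in the GDM libraries and 1.84% to 39.0% in the lean libraries. Summed beta cell markers lay between 1240000 and 2270000 in the GDM libraries and between 1310000 and 1590000 in the lean libraries, as scaled values. Most of this sum came from Ins1 and Ins2. The mean log2 level over the 8 beta cell markers averaged 12.77 in the GDM libraries (12.2 to 13.1) and 12.95 in the lean libraries (12.7 to 13.2). Summed acinar markers, from the exocrine pancreas, lay between 38900 and 682000 in the GDM libraries and between 27400 and 227000 in the lean libraries. All libraries were of whole islets, in which fewer cells of a type and less RNA per cell cannot be told apart. The library names carry the letter K for 3 libraries, all of GDM offspring (GDM-HFS 3, GDM-LF 1 and GDM-LF 2), and the letter G for the others, and the labels do not say what the letter marks.

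Mitochondria keep a ribosome of their own, which reads the few messages of the mitochondrial genome and inserts their products into the inner membrane. Its RNAs come from the mitochondrial genome, whereas all of its proteins are encoded in the nucleus, made in the cytosol and imported. Those products are core parts of the respiratory chain and of ATP synthase, and in beta cells ATP from mitochondria closes the potassium channels that hold back insulin release. Part of the proteins have a counterpart in bacterial ribosomes, and the others were added during the evolution of mitochondria.

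The members lay on 17 chromosomes of rat build rn5. Promoter windows from RefSeq (build GRCr8, 250 bases before to 50 bases after the annotated start) were found for 57 of the 71. The 6 shown were taken because they belong to the largest rises with GDM (Mrps18c, Mrpl22, Mrpl50), the highest level (Mrpl17), a pair of members that run away from each other (Mrpl46, beside Mrps11) and the only fall (Mrps2). Capitals mark matches, on either strand, to CCGGAAG (the motif bound by GABPA and other ETS factors), GCATGCG (the NRF1 core) and GATGGCG (the YY1 core).
Mrps18c, chr14:9122857-9123156, minus strand: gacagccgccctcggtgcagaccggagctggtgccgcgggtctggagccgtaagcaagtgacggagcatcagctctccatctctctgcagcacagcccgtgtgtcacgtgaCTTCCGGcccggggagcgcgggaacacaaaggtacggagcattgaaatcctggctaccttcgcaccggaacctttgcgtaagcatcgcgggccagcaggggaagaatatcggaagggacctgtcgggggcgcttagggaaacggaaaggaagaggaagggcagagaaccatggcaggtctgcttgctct
Mrpl22, chr10:42845660-42845959, plus strand: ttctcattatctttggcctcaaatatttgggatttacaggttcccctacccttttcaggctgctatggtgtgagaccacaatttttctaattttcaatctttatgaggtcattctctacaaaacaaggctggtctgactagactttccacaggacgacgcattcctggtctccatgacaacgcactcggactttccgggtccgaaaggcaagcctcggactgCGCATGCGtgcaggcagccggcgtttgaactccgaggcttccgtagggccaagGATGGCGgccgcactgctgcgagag
Mrpl50, chr5:68668038-68668337, minus strand: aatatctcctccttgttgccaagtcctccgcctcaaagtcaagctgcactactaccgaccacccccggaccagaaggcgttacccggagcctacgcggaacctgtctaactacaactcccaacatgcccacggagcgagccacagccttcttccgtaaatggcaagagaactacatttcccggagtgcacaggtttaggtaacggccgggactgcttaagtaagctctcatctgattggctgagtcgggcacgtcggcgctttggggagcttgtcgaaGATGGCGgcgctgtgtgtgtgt
Mrpl17, chr1:169575650-169575949, minus strand: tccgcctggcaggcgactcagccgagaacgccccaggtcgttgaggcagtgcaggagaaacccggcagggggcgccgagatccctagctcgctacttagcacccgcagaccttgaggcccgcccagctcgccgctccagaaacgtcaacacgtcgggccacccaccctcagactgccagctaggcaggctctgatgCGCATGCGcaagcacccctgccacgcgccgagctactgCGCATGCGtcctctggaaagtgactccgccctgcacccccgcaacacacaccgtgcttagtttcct
Mrpl46, chr1:142116981-142117280, minus strand: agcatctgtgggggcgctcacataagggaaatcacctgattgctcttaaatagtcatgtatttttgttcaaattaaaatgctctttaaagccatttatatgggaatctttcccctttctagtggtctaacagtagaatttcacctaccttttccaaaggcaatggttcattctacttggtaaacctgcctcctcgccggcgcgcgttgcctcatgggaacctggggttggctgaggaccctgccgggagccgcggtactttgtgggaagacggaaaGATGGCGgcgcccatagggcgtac
Mrps2, chr3:32200827-32201126, plus strand: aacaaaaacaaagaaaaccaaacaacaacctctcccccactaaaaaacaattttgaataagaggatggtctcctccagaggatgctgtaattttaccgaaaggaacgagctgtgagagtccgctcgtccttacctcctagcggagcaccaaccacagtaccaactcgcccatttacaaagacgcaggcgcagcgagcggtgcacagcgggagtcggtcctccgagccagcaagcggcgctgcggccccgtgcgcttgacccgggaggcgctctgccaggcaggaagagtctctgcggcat
Mrps18c held 1 CCGGAAG, at base 112 of the window, counted from its 5′ end. Mrpl22 held 1 GCATGCG, which reads on both strands at bases 223 and 224, and 1 GATGGCG at base 276. Mrpl50 and Mrpl46 each held 1 GATGGCG, at bases 279 and 277. Mrpl17 held 2 places with GCATGCG, both read on either strand (bases 197 and 198, and 235 and 236), and Mrps2 held no match to these letters. Over the 57 windows, CCGGAAG was found in 20 (35.1%), against 16.8% of 9909 tested genes with a window and 9.22% of all 27457 windows. GATGGCG was found in 11 of the members' windows (19.3%), against 6.98% of tested genes and 4.26% of all windows. GCATGCG was found in 6 (10.5%), against 5.91% and 3.54%. At least 1 of the 3 was present in 52.6% of members' windows, 26.3% of tested genes' windows and 15.3% of all windows. CCAAT was found in 43.9% of the members' windows, against 37.4% of tested genes and 37.7% of all windows. TATAAA was found in 12.3%, against 7.32% of tested genes and 14.3% of all windows. CCGGAAG stood in 36.4% of the 22 windows of members that rose with GDM and in 34.3% of the 35 windows of the other members. GATGGCG stood in 18.2% and 20.0% of the same windows, GCATGCG in 9.09% and 11.4%, CCAAT in 31.8% and 51.4%, and TATAAA in 9.09% and 14.3%. These differences were not tested.

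Divided by transcript length, the members' mean levels over the 12 libraries ran from 9.09 to 642 scaled units per kilobase, with a median of 118. On the same scale, the median of all tested genes was 35.3, that of 31 tested complex I genes 498 and that of 77 tested cytosolic ribosomal protein genes 3804. Mrpl17, whose product lies near the exit of the peptide tunnel, had the highest level at 642 per kilobase. Mrpl54 followed at 547, Mrps21 at 536 and Mrpl53 at 447 per kilobase. Mrps21 encodes a small-subunit protein with a bacterial counterpart, whereas Mrpl53 and Mrpl54 encode large-subunit proteins without one. The lowest levels were those of Mrpl30 (9.09), Mrpl40 (22.1) and Mrpl36 (22.9 per kilobase). The table places Mrpl30, Mrpl36 and Mrpl1 at 2 loci each, so their values are uncertain. Reads of both strands were counted, so reads of a member and of an overlapping gene on the opposite strand cannot be told apart. Such a neighbour overlaps Mrpl57 (Ska3), Mrps7 (Gga3), Mrps18a (Rsph9), Mrpl13 (Mtbp), Mrpl47 (Actl6a) and Mrps2 (RGD1306233).

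Averaged over the weaning diets, 25 of the 71 genes rose in offspring of GDM dams relative to offspring of lean dams, 1 fell and 45 did not pass the test (limma, adjusted p under 0.05). Of all tested genes, 6.13% rose and 5.43% fell in that comparison. The log2 difference (GDM minus lean) was above 0 for 64 members and below 0 for 7, with a median of 0.39, against 0.03 over all tested genes. All 6 GDM libraries lay above all 6 lean libraries for 8 members (11.3%), against 2.80% of all tested genes. All 6 GDM libraries lay below all 6 lean libraries for 0 members, against 2.32% of all tested genes. The 8 were Mrpl14, Mrpl15, Mrpl18, Mrpl22, Mrpl41, Mrps18c, Mrps21 and Mrps23. Leaving out 1 library moved the count of rises to between 4 (without Lean-LF 1) and 39 (without Lean-LF 3), and the share of all tested genes that rose moved with it, to 1.24% and 9.87% in these fits. The count was 0 without the 3 K libraries, where 0 of all tested genes rose either. Among the G libraries alone, 33 members (46.5%) had an unadjusted p under 0.05, against 17.3% of all tested genes, and the median log2 difference was 0.35 (limma).

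**Figure D1:**
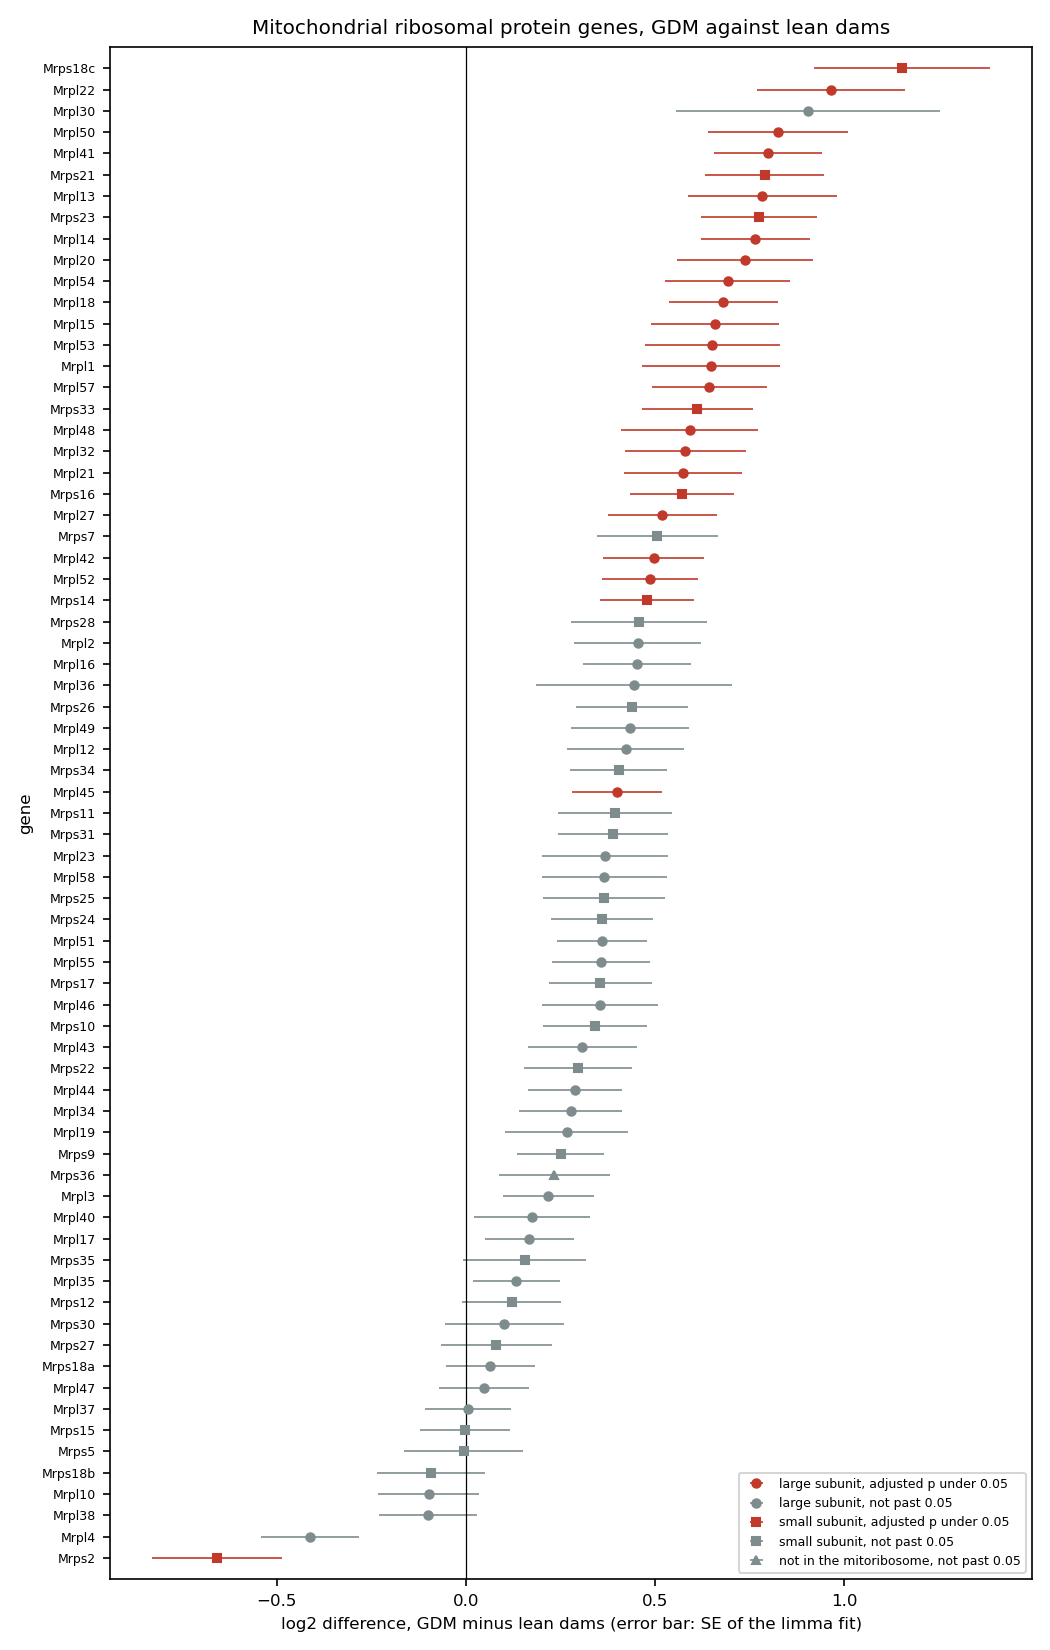
Log2 difference between GDM and lean dams for each of the 71 genes, averaged over weaning diets, with the SE of the limma fit as error bar. The y axis lists the genes in order of the difference, the marker shape gives the subunit and red marks the genes past the adjusted threshold. The points run from Mrps18c at 1.15 to Mrps2 at -0.66.

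In the large subunit, 19 of 45 genes rose and 0 fell, with a median log2 difference of 0.43. In the small subunit, 6 of 25 rose and 1 fell, with a median of 0.37. Of 41 genes whose product has a bacterial counterpart, 14 rose and 1 fell (median 0.42). Of 29 genes whose product has none, 11 rose and 0 fell (median 0.39). The difference between these classes was not tested.

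Mrps18c (chr14:10388657-10394875, rn5), which encodes a small-subunit homologue of bacterial S18, showed the largest rise. Its scaled values were 270, 280 and 341 in GDM-HFS islets and 259, 278 and 243 in GDM-LF islets. In offspring of lean dams they were 120, 189 and 125 in Lean-HFS islets and 68.2, 87.3 and 215 in Lean-LF islets. All GDM libraries were higher than all lean libraries, and Lean-LF 3 was the highest of the lean ones. The log2 difference was 1.15 ± 0.23 (SE; adjusted p = 0.0141, limma), a fold of 2.22. The S18 family has 3 members in mammals, and the other 2 did not pass. Mrps18a averaged 151 ± 17.5 in GDM and 145 ± 23.6 in lean islets (SD, n = 6 each), with a log2 difference of 0.07 ± 0.12. Mrps18b averaged 267 ± 54.9 in GDM and 278 ± 16.4 in lean islets, with a log2 difference of -0.09 ± 0.14. The difference between the paralogs' responses was not tested.

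Mrpl22 (chr10:43395542-43405875), whose product lines the peptide exit tunnel, had 205, 186 and 233 in GDM-HFS and 144, 218 and 145 in GDM-LF islets. The lean offspring had 94.0, 115 and 116 in Lean-HFS and 61.2, 66.8 and 139 in Lean-LF islets. The groups did not overlap, although GDM-LF 1 at 144 and Lean-LF 3 at 139 were close. This gave a log2 difference of 0.96 ± 0.20 (SE; adjusted p = 0.0145, limma). Mrpl50 (chr5:69275573-69280730), a mitochondria-specific protein of the large subunit, had 258, 267 and 328 in GDM-HFS and 216, 263 and 276 in GDM-LF islets. It had 127, 191 and 161 in Lean-HFS and 102, 123 and 229 in Lean-LF islets, so that Lean-LF 3 overlapped with the GDM libraries. The log2 difference was 0.83 ± 0.18 (SE; adjusted p = 0.0186, limma).

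Mrpl41 (chr3:2162292-2163210), a large-subunit protein that also binds BCL2 in human cells, had the lowest adjusted p of the members. Its values were 320, 337 and 300 in GDM-HFS and 232, 297 and 252 in GDM-LF islets, against 191, 209 and 140 in Lean-HFS and 146, 124 and 199 in Lean-LF islets. Every GDM library was above every lean library, and the log2 difference was 0.80 ± 0.14 (SE; adjusted p = 0.0118, limma). Mrps23 (chr10:74569618-74577376), a mitochondria-specific protein of the small subunit, had 226, 262 and 316 in GDM-HFS and 232, 285 and 235 in GDM-LF islets. Its lean values were 146, 168 and 181 in Lean-HFS and 105, 126 and 194 in Lean-LF islets, all lower than the GDM values. Here the log2 difference was 0.77 ± 0.15 (SE; adjusted p = 0.0133, limma). The other members among the 10 largest rises past the threshold were Mrps21 (0.79), Mrpl13 (0.78), Mrpl14 (0.76), Mrpl20 (0.74) and Mrpl54 (0.69 on the log2 scale). Mrpl13 overlaps Mtbp on the opposite strand by 29 bases, and Mtbp itself had a log2 difference of 1.25 (adjusted p = 0.0191, limma). Among the smaller rises, Mrpl57 overlaps Ska3 on the opposite strand by 107 bases. Ska3 itself had a log2 difference of 0.68 (adjusted p = 0.0474, limma). The product of Mrpl14 lies at the face of the large subunit that meets the small one. The remaining rises ran from 0.40 (Mrpl45) to 0.68 (Mrpl18) and included Mrpl1, Mrpl15, Mrpl21, Mrpl27, Mrpl32, Mrpl42, Mrpl48, Mrpl52, Mrpl53 and Mrpl57 of the large and Mrps14, Mrps16 and Mrps33 of the small subunit.

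Mrps2 (chr3:12402368-12407371), the homologue of bacterial S2, was the only member that fell. It had 41.0, 51.6 and 43.4 in GDM-HFS and 47.6, 57.2 and 50.3 in GDM-LF islets, against 80.1, 62.7 and 104 in Lean-HFS and 73.0, 94.3 and 56.1 in Lean-LF islets. The groups overlapped in 1 pair of libraries, GDM-LF 2 at 57.2 and Lean-LF 3 at 56.1. The log2 difference was -0.66 ± 0.17 (SE; adjusted p = 0.0305, limma). Mrpl4, whose product in bacteria reaches into the exit tunnel, averaged 88.8 ± 12.9 in GDM and 118 ± 8.58 in lean islets (SD, n = 6 each). Its log2 difference of -0.41 ± 0.13 did not pass (adjusted p = 0.0555, limma).

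Other members lay between these. Mrpl12, the stalk protein that recruits translation factors, averaged 242 ± 39.3 in GDM and 181 ± 37.2 in lean islets, a log2 difference of 0.42 ± 0.15 that did not pass (adjusted p = 0.0875, limma). Mrps30 had a log2 difference of 0.10 ± 0.16 and Mrps36 one of 0.23 ± 0.15, and neither passed. Mrpl17, the member of highest level, averaged 801 ± 147 in GDM and 708 ± 89.7 in lean islets, a log2 difference of 0.17 ± 0.12 (adjusted p = 0.355, limma). Mrpl30 had a log2 difference of 0.90 ± 0.35 at low values (13.4 ± 5.19 in GDM and 6.62 ± 3.53 in lean islets), which did not pass.

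**Figure D2:**
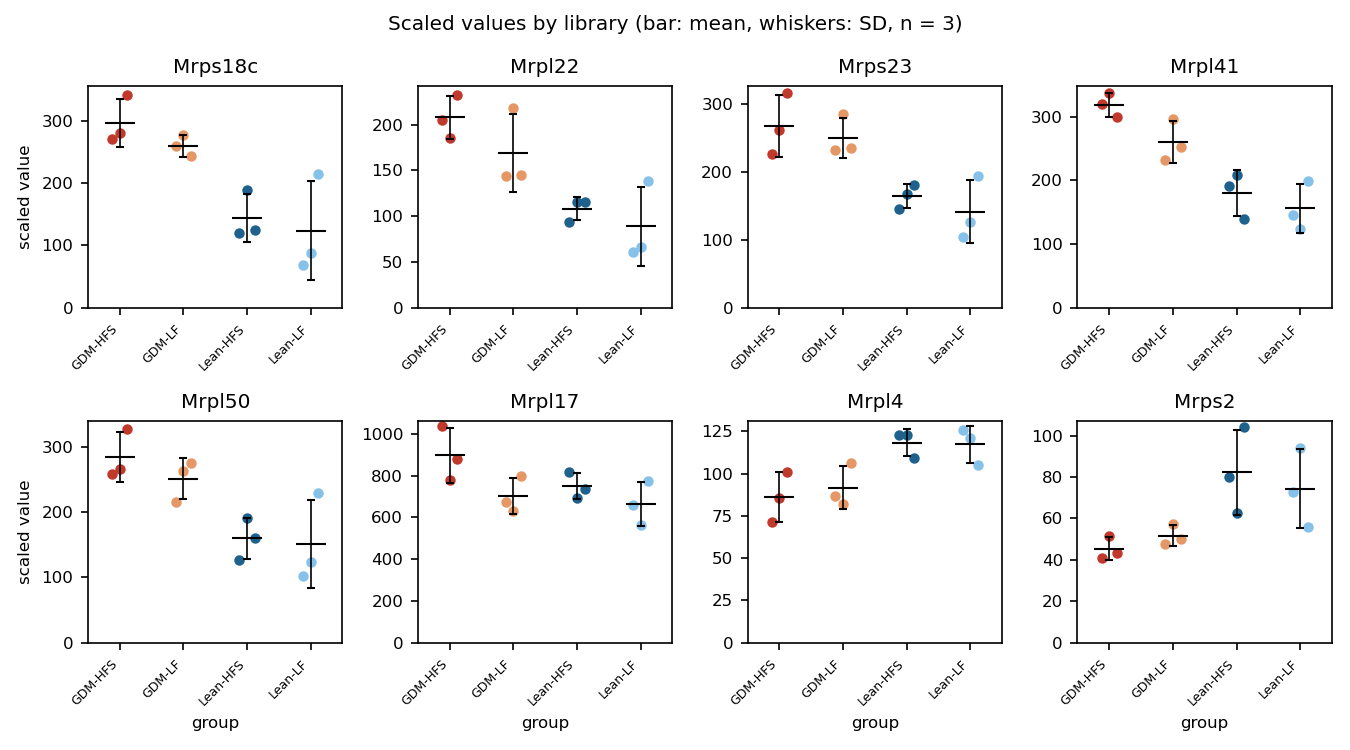
Scaled values of 8 members in each library, by group, with a bar for the mean and whiskers for the SD (n = 3). Mrps18c, Mrpl22, Mrps23 and Mrpl41 lie higher in both GDM groups than in both lean groups, Mrpl50 does so with 1 lean library in the GDM range, and Mrpl4 and Mrps2 lie lower, while Mrpl17 overlaps throughout. Lean-LF 3 is the highest Lean-LF point for Mrps18c (215) and Mrpl50 (229).

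Transcript length moved with the difference, and the members are short. Their median length in the table was 989 bases (462 to 2396), against 2118 over all tested genes, and 52.1% of members were under 1000 bases, against 10.8%. The 4910 other tested genes between the 10th and 90th percentile of the members' lengths (606 to 1924 bases) had a median log2 difference of 0.19, against 0.39 for the members. Their median length was 1397 bases, so they were still longer than the members. Of these genes of similar length, 9.55% rose and 1.87% fell, against 35.2% and 1.41% of the members. All 6 GDM libraries were above all 6 lean libraries for 4.28% of genes of similar length. Spearman's rho between length and log2 difference was -0.49 over the 71 members and -0.40 over all tested genes. These describe genes of the same 12 libraries, so the points share libraries and depth and are not independent.

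Within bands of length, the members' median was below that of the other genes under 750 bases and above it in the longer bands. In that shortest band the lengths were unequal, with a median of 634.5 bases for members and 562 for the other genes. Under 750 bases, 10 of 18 members rose, with a median log2 difference of 0.51, against 34.1% and 0.57 for 683 other genes. From 750 to under 1000 bases, 8 of 19 members rose with a median of 0.45, against 19.2% and 0.35 for 614 others. From 1000 to under 1500 bases, 4 of 19 rose with a median of 0.30, against 9.25% and 0.22 for 2087 others. From 1500 to under 2500 bases, 3 of 15 rose and 1 fell with a median of 0.16, against 3.27%, 3.72% and 0.04 for 3974 others. Set against genes within 10% of its own length, a member lay above their median in 47 of 71 cases, by 0.08 at the median. Of the 25 members that rose, 23 lay above it, and Mrps21 (0.79 on the log2 scale, neighbours 0.79) and Mrpl42 (0.50, neighbours 0.51) did not. The 25 were selected by this same difference, so the count of 23 was largely set by the selection.

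With the length trend of each library removed, 4 members rose, against 1.90% of all tested genes, and 1 fell, against 2.58%. The 4 were Mrpl50 (log2 difference 0.78 ± 0.18, adjusted p = 0.0363), Mrps18c (0.75 ± 0.18, adjusted p = 0.0394), Mrpl15 (0.59 ± 0.16, adjusted p = 0.0499) and Mrps23 (0.58 ± 0.12, adjusted p = 0.0334, limma). The one that fell was Mrpl4 (-0.52 ± 0.13, adjusted p = 0.0443, limma). Mrps2 was at -0.62 ± 0.17 and no longer passed (adjusted p = 0.0525, limma). The members' median was then 0.08, against 0.01 in genes of similar length and 0.02 over all tested genes, and 49 of 71 were above 0. Among the shortest members, Mrps21 (462 bases) was at 0.11 after removal and 0.79 as fitted, Mrpl49 (496 bases) at -0.22 and 0.43, and Mrps10 (501 bases) at -0.30 and 0.34. Of the longest members, Mrpl51 was at 0.40 after removal and 0.36 as fitted, and Mrpl40 at 0.22 and 0.17.

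**Figure D3:**
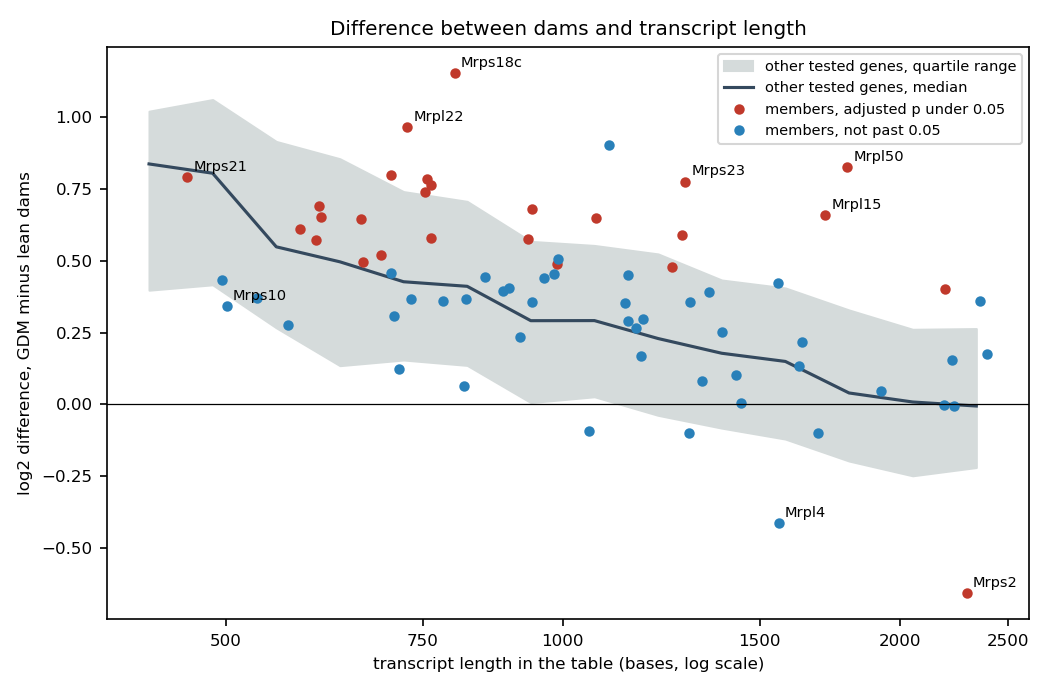
Log2 difference between GDM and lean dams (y) against transcript length in bases (x, log scale) for the 71 members, with the median and quartile range of the other tested genes in bands of length. Mrpl50, Mrps18c, Mrps23 and Mrpl15 lie above the quartile range at their lengths, Mrps21 lies near the median at its length, and Mrpl4 and Mrps2 lie below the range.

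The level of the whole set differed between libraries of the same group. The median log2 deviation of the members from their own means was 0.26, 0.23 and 0.40 in GDM-HFS and 0.02, 0.21 and 0.08 in GDM-LF libraries. It was -0.17, 0.01 and -0.14 in Lean-HFS and -0.39, -0.48 and 0.03 in Lean-LF libraries. GDM-HFS libraries were the highest, Lean-LF 1 and Lean-LF 2 the lowest, and Lean-LF 3 and Lean-HFS 2 lay beside GDM-LF 1. GDM-HFS 3 held the highest value of 34 members, and Lean-LF 1 and Lean-LF 2 the lowest of 25 and 27. Lean-LF 3 was above both other Lean-LF libraries for 59 of the 71 genes. That library had 1.84% ribosomal RNA, against 11.3% in Lean-LF 1 and 30.4% in Lean-LF 2. Lean-HFS 2, where the members' deviation was close to that of Lean-LF 3, had 31.3%. The median of genes under 1000 bases less that of genes over 4000 bases, as a deviation, lay between -0.06 and 0.73 in GDM libraries and between -0.72 and -0.08 in lean libraries. With the level of the ribosomal RNA entry Rn45s as a covariate, 0 members and 0 of all tested genes passed, 3 members (4.23%, against 3.52% of all tested genes) had an unadjusted p under 0.05, and the members' median difference was 0.17 (limma). With the acinar level as a covariate, 11 rose and 1 fell, with a median of 0.38, while 2.63% of all tested genes rose and 1.37% fell.

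**Figure D4:**
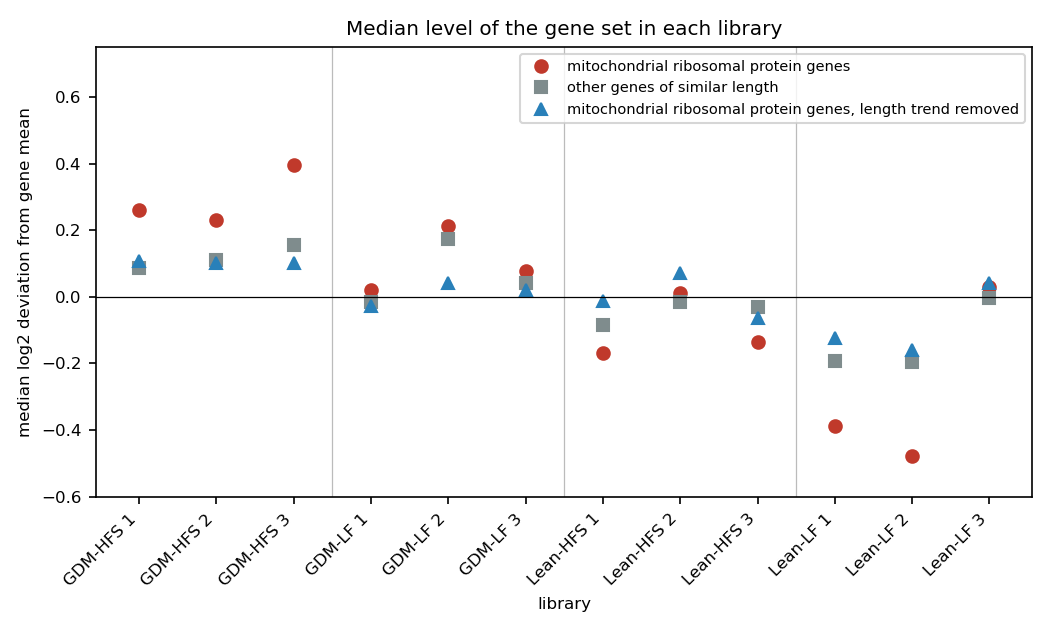
Median log2 deviation from each gene's mean (y) in each of the 12 libraries (x), for the 71 members, for other genes of similar length, and for the members with the length trend removed. The members lie between 0.02 and 0.40 in the GDM libraries and between -0.48 and 0.03 in the lean libraries. Over all libraries, genes of similar length lie between -0.20 and 0.17, and the members without the length trend between -0.16 and 0.11.

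On each weaning diet alone, fewer genes passed. On the LF diet, 2 members rose with GDM (against 0.851% of all tested genes) and 0 fell (against 0.729%), with a median log2 difference of 0.38. Mrpl14 had 173, 179 and 130 in GDM-LF against 63.6, 68.5 and 102 in Lean-LF islets, without overlap, a log2 difference of 1.05 ± 0.20 (adjusted p = 0.0477, limma). Mrpl45, whose product in human cells holds the ribosome at the inner membrane, had 153, 172 and 156 in GDM-LF against 92.0, 92.1 and 104 in Lean-LF islets. Its values also did not overlap, and the log2 difference was 0.74 ± 0.17 (adjusted p = 0.0477, limma). Neither call held under most other settings, and without Lean-LF 3 the count was 26, in a fit that called 14.1% of all tested genes. On the HFS diet, 0 members rose (against 0.0081% of all tested genes) and 0 fell (against 0.0%). There 29 members were higher and 2 lower at an unadjusted p under 0.05 (43.7% in all, against 14.2% of all tested genes and 15.3% of genes of similar length), and the median difference was 0.41 (limma). DESeq2 called 3 members (4.23%), against 4.07% of the genes to which it gave an adjusted p, and edgeR 0, against 0.00811%. The member of lowest p was Mrpl41, with 320, 337 and 300 in GDM-HFS against 191, 209 and 140 in Lean-HFS islets, which did not overlap (log2 difference 0.84 ± 0.20, adjusted p = 0.188, limma).

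By limma, the weaning diet moved 0 members and 0 of the 12340 genes past the threshold, averaged or in either dam group. In the averaged comparison 305 genes were higher and 307 lower on HFS than on LF at an unadjusted p under 0.05, 4.96% in all. HFS against LF, averaged over dams, gave a median log2 difference of 0.20, with 66 of 71 members above 0 and 5 (7.04%) at an unadjusted p under 0.05 (limma), whereas genes of similar length had a median of 0.07. The median was 0.21 in offspring of GDM dams, with 2 members (2.82%) at an unadjusted p under 0.05, against 9.63% of all tested genes. In offspring of lean dams it was 0.18, with 6 members (8.45%), against 2.18% of all tested genes (limma). The member of lowest p in the averaged comparison was Mrps15, a small-subunit homologue of bacterial S15. It had 152, 133 and 130 in GDM-HFS and 113, 128 and 106 in GDM-LF islets, and 135, 155 and 157 in Lean-HFS and 128, 98.2 and 99.3 in Lean-LF islets. The HFS libraries were above the LF libraries within each dam group, but the log2 difference of 0.36 ± 0.12 did not pass (adjusted p = 0.883, limma). Mrps16 (0.34 ± 0.14) and Mrpl52 (0.33 ± 0.13) had the same adjusted p. edgeR and DESeq2 also called 0 members.

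The interaction, which asks whether the difference between dams depends on the weaning diet, gave 0 calls among members and among all genes. Its median over the members was 0.01, with 39 above 0 and 1 (1.41%) at an unadjusted p under 0.05, against 5.92% of all tested genes (limma). That member was Mrpl45, at -0.67 ± 0.24 (adjusted p = 0.784, limma), which had 136, 139 and 143 in GDM-HFS and 111, 164 and 130 in Lean-HFS islets. DESeq2 and edgeR gave 0 members here as well.

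**Figure D5:**
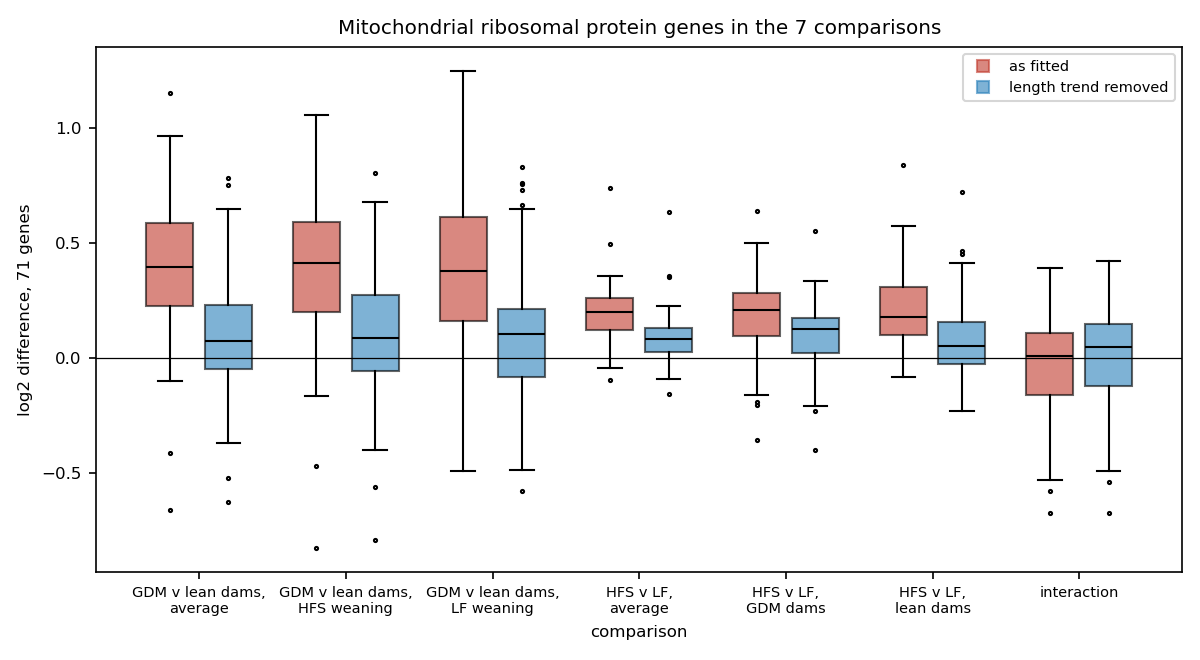
Log2 differences of the 71 members in the 7 comparisons, as fitted and with the length trend removed. Boxes show the quartiles and the median, and points lie beyond the whiskers. The medians of the 3 comparisons between dams lie at 0.38 to 0.41 as fitted and between 0.08 and 0.10 with the length trend removed.

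Other genes of mitochondrial translation were compared on the same averaged difference between dams, in which 6.13% of all tested genes rose, 5.43% fell and 30.9% had an unadjusted p under 0.05. Of 5 tested genes for mitoribosomal proteins under other names, Chchd1 (log2 difference 0.90, adjusted p = 0.0146) and Gadd45gip1 (0.64, adjusted p = 0.0238, limma) rose. Both encode proteins of the mature ribosome, and Dap3, which encodes a GTP-binding one, was at 0.23. With the length trend removed, Chchd1 (adjusted p = 0.128) and Gadd45gip1 (adjusted p = 0.0718, limma) did not pass. Of 13 genes for translation factors and related proteins, among them the elongation factor Tufm at -0.04, 0 rose and 0 fell by limma. Of the 13, 4 were at an unadjusted p under 0.05 (limma), a share near that of all tested genes. A list of 19 genes for the charging of mitochondrial tRNAs held aminoacyl-tRNA synthetases, except for Qrsl1 and Gatc. Of these 19, 0 rose and 1 fell (5.26%, near the share of all tested genes). It was Gars, which charges tRNA with glycine in the cytosol as well, at -0.59 (adjusted p = 0.0244, limma). Gars passed also with the length trend removed (-0.55, adjusted p = 0.0427, limma).

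Of 25 genes for assembly and RNA modification of the mitoribosome, 2 rose (8.0%, near the share of all tested genes) and 0 fell. Malsu1, an assembly factor that binds the product of Mrpl14 in human cells, was at 0.46 (adjusted p = 0.0267) and Mpv17l2, another assembly factor, at 0.61 (adjusted p = 0.0319, limma). Of 20 genes for mitochondrial transcription and RNA processing, 2 rose (10.0%, also near that share) and 0 fell. Slirp, which stabilises mitochondrial messages, was at 0.80 (adjusted p = 0.00966) and Hsd17b10, a part of mitochondrial RNase P, at 0.75 (adjusted p = 0.0164, limma). Slirp passed also with the length trend removed (0.89, adjusted p = 0.0301, limma). Malsu1 (0.02, adjusted p = 0.909), Mpv17l2 (0.31, adjusted p = 0.167) and Hsd17b10 (0.41, adjusted p = 0.0599, limma) then did not pass. The polymerase gene Polrmt was at -0.26 and Tfam at 0.27, and neither passed.

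Of 12 nuclear regulators of mitochondrial genes, 0 rose and 2 fell (16.7%, against 5.43% of all tested genes). Ppargc1a, a coactivator of mitochondrial biogenesis, had 22.3, 17.9 and 19.7 in GDM-HFS and 16.2, 11.6 and 29.5 in GDM-LF islets. Its values were 26.1, 35.6 and 45.7 in Lean-HFS and 33.4, 31.9 and 41.4 in Lean-LF islets, so that 1 GDM-LF library reached into the lean range. The log2 difference was -0.87 ± 0.23 (SE; adjusted p = 0.0339, limma). Sp1, a general transcription factor, was at -0.39 ± 0.10 (adjusted p = 0.0339, limma). Neither passed with the length trend removed (Ppargc1a -0.82, adjusted p = 0.0604, and Sp1 -0.12, adjusted p = 0.434, limma). Gabpa at -0.26, Nrf1 at 0.24 and Yy1 at -0.03, which encode the factors named for the promoter motifs, did not pass.

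Other sets of short genes stood higher as well. Of 77 cytosolic ribosomal protein genes, 67 rose and 0 fell, with a median log2 difference of 1.01 and a median length of 595 bases. With the length trend removed, 28 of them rose and the median was 0.40. Of 31 complex I genes, 20 rose and 0 fell (median 0.59), and 2 rose with the length trend removed (median 0.15). Both lists were drawn up by symbol after the table was seen. All 14 acinar markers had a positive difference, with a median of 1.03, and none passed by limma, with 2 at an unadjusted p under 0.05. Of 4 delta and PP cell markers, Ppy and Rbp4 rose, and the summed list lay between 7840 and 28700 in GDM and between 3010 and 20800 in lean libraries. Of 5 endothelial markers, Kdr and Eng fell, and the summed list lay between 297 and 745 in GDM and between 495 and 1150 in lean libraries. Of the 8 beta cell markers 5 lay below 0 and 1 of them passed (Nkx6-1), and of 5 alpha cell, 4 duct and 5 macrophage markers 0 passed. With the length trend removed, 0 beta cell markers lay above 0, and Ucn3 passed (-1.16, adjusted p = 0.0378, limma). Ppy, Rbp4, Kdr, Eng and Nkx6-1 then did not pass (adjusted p from 0.0765 to 0.173, limma). The part of cell composition in the members' differences was not tested beyond the acinar covariate.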

How the data were processed

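Islet RNA of 12 rat offspring was depleted of ribosomal RNA and sequenced as strand-specific libraries, per the labels' protocols. The submitters' processing notes name STAR 2.5.1b, HOMER 4.9 and DESeq2. Exon reads were summed per gene over both strands on rn5, with 1 condensed entry per gene, per the file headers. The treatment of reads with several matches is not stated in the labels or headers. The deposited values are a signal scaled by the authors to library depth. Although FPKM stands in the header, no division by length was made: up to 1000 reads, 100% of the values came out as whole reads (within 0.1) after division by 1 step per library.

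Each library was divided by its median-ratio size factor, taken over the 11337 genes above 0 in all libraries (factors 0.82 to 1.27), which gave the scaled values printed. limma 3.58.1 (R 4.3.3) with a mean-variance trend was fitted to log2(scaled value + 1) of the 12340 genes that averaged 1 or more. The model had 1 mean per group over 12 libraries and 7 contrasts, each adjusted by Benjamini-Hochberg over all tested genes (threshold 0.05). Differences on this scale understate changes of genes with low values. The fit was repeated after subtracting a lowess curve (span 0.3) of log2 deviation over log2 length in each library. edgeR 4.0.16 and DESeq2 1.42.0 were run on recovered reads without 3 ribosomal RNA entries.

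Named members were fixed by a rule: the 10 largest rises and the falls past the threshold, the calls with the length trend removed, the 4 of highest level, the 3 longest and 3 shortest, the calls or 3 lowest p of each other contrast, 7 by role, and the 3 lowest p of each other list. Further genes were named by role or after their values were seen. Members and lists were chosen with earlier results of these data known, and the bands of length, the 10% window and the motifs were set after the table was seen. Promoters are from RefSeq (GRCr8). Same-numbered replicates of different groups share only a number.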

Additional observations from a re-analysis of the deposited data

How the results depend on the processing

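The members' median log2 difference between GDM and lean dams stayed above 0 under every alternative run. It was 0.0759 with the length trend removed, with or without a replicate block, and 0.17 with Rn45s as a covariate, against 0.39. The gap between members and genes of similar length was 0.0630 with the length trend removed, with or without a replicate block, and 0.0907 with Rn45s, against 0.20. The genes of similar length were longer at the median (1397 bases, against 989 for the members). Set against genes within 10% of their own length, members lay 0.08 higher at the median as fitted. Leaving out 1 library gave medians of 0.35 to 0.47 and gaps of 0.19 to 0.24. The depth of the libraries left 1 member, Mrpl30, with fewer than 20 reads in a library.

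The count of 25 members that rose became 12 without rescaling, 10 without the mean-variance trend, 4 with the length trend removed, 0 with Rn45s and 11 with the acinar level as covariate, and 0 without the K libraries (33 at an unadjusted p under 0.05, limma). In that last fit GDM-LF has 1 library, assumed to vary like the other groups. With edgeR 22 and with DESeq2 31 rose. The count over all tested genes moved too: 756 as reported, it was 426 without rescaling, 411 without the trend, 234 with length removed, 324 with the acinar level, 671 with edgeR, 1173 with DESeq2, 153 without Lean-LF 1 and 1216 without Lean-LF 3. Leaving out 1 library gave 4 to 39 members that rose: 4 without Lean-LF 1 and 39 without Lean-LF 3. Without Lean-LF 2, 6 members and 198 of all tested genes rose. These counts were 7 and 230 without GDM-HFS 3, 7 and 249 without Lean-HFS 1, and 14 and 477 without GDM-HFS 2. They were 14 and 465 without GDM-LF 2, and 16 and 592 without Lean-HFS 3. All 25 kept a positive difference in each of these fits except Mrpl42 with the length trend removed (-0.0035). The 25 were selected by this same difference in the same libraries, so the kept sign was largely set by the selection. The count of falls, 1 as reported, was 0 without rescaling, with Rn45s and without the K libraries, 2 with a minimum mean of 10, with edgeR and with DESeq2, and 0 to 2 when 1 library was left out.

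Same-numbered libraries deviated together with correlations of -0.50 to 0.20, so the numbers were not used as pairs. A replicate block left 23 members that rose, while 638 of the 12340 tested genes rose. With the length trend removed as well, 2 members rose and 0 fell, while 82 of all tested genes rose and 102 fell. On the LF diet the 2 calls for GDM became 0 with the block, alone or with the length trend removed, and also 0 with pseudocounts of 0.1 and 10, no filter on low values, no rescaling, no mean-variance trend, the length trend removed, either covariate, no K libraries and edgeR. DESeq2 gave 14 there (against 14.3% of genes with an adjusted p), and leaving out 1 library 0 to 26. On the HFS diet DESeq2 called 3, against 0 as reported, a share near the 4.07% of genes to which it gave an adjusted p. Leaving out 1 library gave 0 to 6 there, and the share of all tested genes in those fits is not reported here. No other comparison gained a call.

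Of 810 values of the 30 named members under the alternatives, 609 kept their direction and side of the threshold, 158 no longer passed, 12 newly passed and 31 changed sign. With the length trend removed, with or without the block, the sign changed for Mrpl17 (-0.0622), Mrpl34 (-0.30), Mrpl49 (-0.22), Mrps10 (-0.30), Mrps15 (0.0216), Mrps18a (-0.32), Mrps30 (-0.0463) and Mrps36 (-0.10). With Rn45s it changed for Mrps15 (0.0263), Mrps18b (0.0108) and Mrps36 (-0.12), with upper-quartile rescaling for Mrps15 (0.0331) and without the K libraries for Mrps18b (0.0290). Leaving out 1 library gave -0.0402 to 0.0592 for Mrps15, -0.0007 to 0.11 for Mrps18a, -0.18 to 0.0503 for Mrps18b and -0.0006 to 0.16 for Mrps30. The causes were not tested, beyond what each alternative's construction shows.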

Other observations

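Many genes of mitochondrial proteins share a promoter region with a gene on the other strand. Of the 71 members, 18 had the start of another table entry facing away within 1000 bases on rn5. Mrpl46 and Mrps11 start 234 bases apart and run away from each other. The 16 pairs with a tested partner that is not a member were compared on the log2 difference between GDM and lean dams. The members' median was 0.44 and the partners' median 0.18, 6 members and 3 partners rose, 0 of both fell, and 13 pairs had the same sign. Of all tested genes, 6.13% rose and 5.43% fell. Of the 71 members 64 lay above 0, and of the 12340 tested genes 6503 did, so many pairs share a sign in any case. Whether the 2 genes of a pair change together was not tested. Mrps18c stood at 1.15 and its partner Helq, 72 bases away, at 0.22 (adjusted p = 0.392, limma). Mrpl50 stood at 0.83 and its partner Zfp189, 138 bases away, at 0.16 (adjusted p = 0.634, limma). Mrpl21 stood at 0.57 and its partner Ighmbp2 at -0.44, which did not pass (adjusted p = 0.0865, limma). The partners that rose were Psma2 (0.69, beside Mrpl32), Ndufb5 (0.59, beside Mrpl47) and Fau (0.72, beside Mrpl49), of which Psma2 and Fau are short. Partners and members differ in length, and the pairs were chosen after the table was seen.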
